A study of Mus musculus with 4 samples.

Results

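TGF-β ligands, their receptors and the Smad proteins were followed as 10 genes (Tgfb1, Tgfb2, Tgfb3, Tgfbr1, Tgfbr2, Smad2, Smad3, Smad4, Smad6 and Smad7) out of 20088 protein-coding genes that could be placed in both genome builds of the series. The genes were chosen by name. For each of them, ATAC-Seq peaks were taken at the promoter, with the summit within 1 kb of the transcription start site (TSS), and in the gene body plus 50 kb on each side. ATAC-Seq marks open chromatin by the sites at which the Tn5 transposase inserts sequencing adapters. The cells were primary chondrocytes, the cells of cartilage, digested from the ribs of newborn mice and used within 2 passages. Cho had 2 replicates, called Cho 1 and Cho 2, with no genotype in the labels and nothing to say that they came from separate animals. WT had 1 library, and E160(delta/delta);E308(delta/delta), called the deletion here, had 1 library, from littermate mice by the study's account. E160 and E308 are elements upstream of Sox9, a transcription factor of cartilage, and both were removed by genome editing of fertilised oocytes, so the deletion is not limited to cartilage. With 1 library per genotype, WT against the deletion compares 2 libraries and not the genotypes, so no test was made.

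TGF-β is secreted in a latent complex and, once released, binds a type II receptor (Tgfbr2) that recruits and phosphorylates a type I receptor (Tgfbr1). The type I receptor phosphorylates Smad2 and Smad3, which join Smad4 and enter the nucleus, whereas Smad6 and Smad7 hold the pathway back. In cartilage the pathway is known for promoting early chondrogenesis and for restraining hypertrophic maturation.

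In NCBIM37, the build of 3 of the lists, the ligand genes were Tgfb1 (ENSMUSG00000002603.9) at chr7:26472021-26490096 on the plus strand, Tgfb2 (ENSMUSG00000039239.8) at chr1:188447065-188529871 on the minus strand and Tgfb3 (ENSMUSG00000021253.6) at chr12:87397694-87419991 on the minus strand. The receptors were Tgfbr1 (ENSMUSG00000007613.9) at chr4:47366094-47427803 on the plus strand and Tgfbr2 (ENSMUSG00000032440.5) at chr9:115993415-116084383 on the minus strand. The receptor-regulated Smads were Smad2 (ENSMUSG00000024563.9) at chr18:76401234-76465385 on the plus strand and Smad3 (ENSMUSG00000032402.6) at chr9:63494574-63605801 on the minus strand, and the common partner was Smad4 (ENSMUSG00000024515.7) at chr18:73798663-73863434 on the minus strand. The inhibitory Smads were Smad6 (ENSMUSG00000036867.5) at chr9:63800953-63869866 on the minus strand and Smad7 (ENSMUSG00000025880.5) at chr18:75527183-75555589 on the plus strand, so that Smad3 and Smad6 were neighbours on chromosome 9 and Smad2, Smad4 and Smad7 shared chromosome 18.

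The peak lists held 76242 peaks in Cho 1, 148330 in Cho 2, 90971 in WT and 169591 in the deletion. The depth read from the background was 6841, 20820, 4622 and 8697 tags per Mb of genome in the same order, so WT was the shallowest library. Fold enrichment is the pileup of fragments at a summit over the background around it, with 1 added to both. In Cho 1 the same background of 1.37 fragments was solved for every peak, whereas the other lists used a background measured around each peak. Fold enrichment is therefore not the same quantity in the 2 Cho replicates, and a Cho mean mixes both. E308 had a fold enrichment of 15.4 in WT. In the deletion a peak of 3.07 overlapped the E308 interval, where an overlap at the edge counted too. Its summit of 4 fragments was the smallest pileup in that list. E160 had 13.4 in WT and no peak in the deletion. The study reported that neither element was detectable in the deletion mice. Of 8 chondrocyte markers, 3 had a promoter peak in Cho 1 (Sox9, Col2a1 and Hapln1) and 7 in each other library, with Comp at none. Markers of fibroblasts and osteoblasts had a promoter peak for 3 of 4 measured genes in Cho 1 and for 4 of 4 elsewhere. Blood markers had 0, 2, 0 and 2 of 4, muscle markers 0, 1, 1 and 2 of 4, endothelial markers 2, 1, 2 and 2 of 3, and keratinocyte markers 0 of 2 in every library. The endothelial markers with a peak in both genotypes were higher in the deletion, Pecam1 with 8.31 in WT and 16.5 in the deletion and Kdr with 5.88 and 7.69. The part of such cells in the values of the TGF-β genes was not tested.

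Every one of the 10 promoters was open in Cho 1, in WT and in the deletion, and 9 were called in Cho 2. Over all protein-coding promoters the share with a peak was 58.6% in Cho 1, 64.9% in Cho 2, 62.2% in WT and 67.8% in the deletion, and 52.8% had a peak in all 4 libraries. The gap in Cho 2 was Tgfb2, whose RefSeq gene record starts 3708 bp upstream of the start used in NCBIM37. At the start matched by promoter sequence, Tgfb2 had a peak in that library too.

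**Figure D1:**
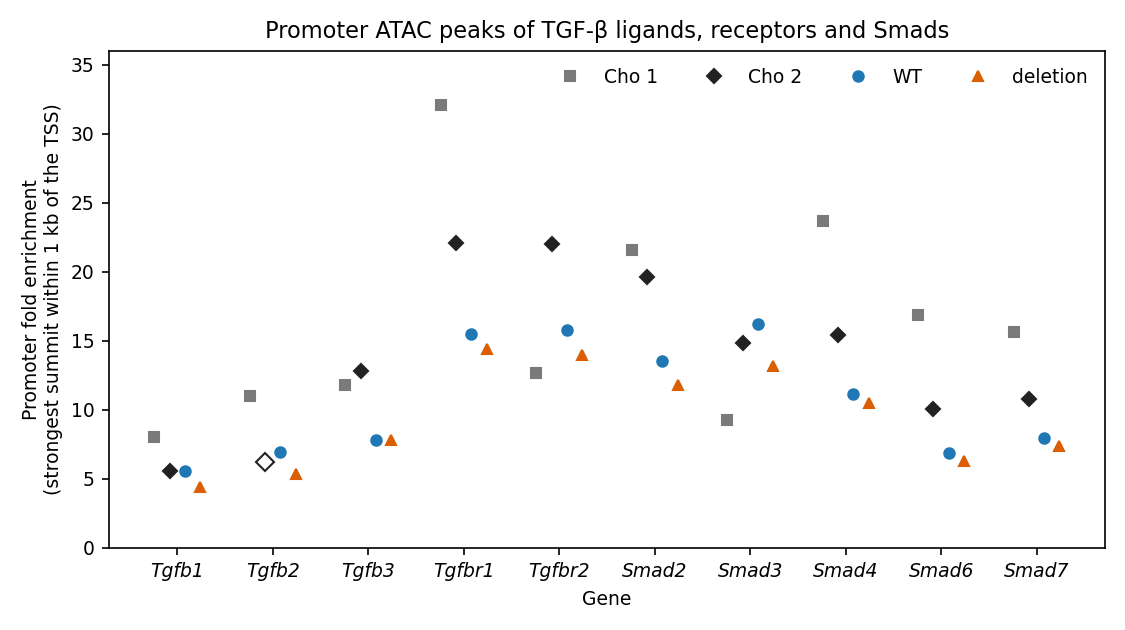
Fold enrichment (vertical axis, no unit) of the strongest promoter peak of each gene (horizontal axis) in the 4 libraries, 1 point per library. The open diamond is Tgfb2 in Cho 2 at the start matched by sequence (6.22), and the deletion points lie at or below the WT points except for Tgfb3 (7.82 in WT and 7.84 in the deletion).

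In WT and in the deletion the 5 lowest of the 10 promoters by fold enrichment were those of the 3 ligands and of Smad6 and Smad7. Tgfb1, the most widely expressed ligand, had promoter fold enrichments of 8.02 and 5.54 in the Cho replicates (6.78 ± 1.76, SD, n = 2), 5.60 in WT and 4.42 in the deletion. By the gene start used here it was the weakest of the 10 promoters in all 4 libraries. In WT and the deletion it lay at the 6.51th and 3.32th percentile of all called promoters. Tgfb2 had 11.0 in Cho 1, 6.22 in Cho 2 at the matched start (8.60 ± 3.36, SD, n = 2), 6.97 in WT and 5.34 in the deletion. Its strongest summit lay inside the gene, 521 bp past the TSS in WT and 545 bp past it in the deletion, with a weaker summit upstream, at -89 and -160 bp. Tgfb3, which acts in palate and skeletal development, had 11.8 and 12.8 in the Cho replicates (12.3 ± 0.70, SD, n = 2), 7.82 in WT and 7.84 in the deletion. Its promoter held separate summits in WT, at 22 and -482 bp, and again in the deletion, at -28 and -481 bp.

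The Tgfb1 locus had a stronger site inside the gene than at its annotated start, chosen for mention after its values were seen. This site lay in the first kilobases of the gene, 2.41 kb past the TSS and 486 bp from an internal start of another Tgfb1 transcript. Its fold enrichment was 11.4 and 10.9 in the Cho replicates (11.1 ± 0.37, SD, n = 2), 8.99 in WT and 11.3 in the deletion, above the Tgfb1 promoter in each library. In WT this site was also above the promoters of Tgfb2, Tgfb3, Smad6 and Smad7 at their gene starts. The summit pileup there was 26 fragments in WT and 48 in the deletion, a ratio of 1.06 after division by library background (95% exact interval 0.646 to 1.79, counting error only). The sequence of 151 bases on the WT summit, intronic by annotation and on the plus strand of NCBIM37 at chr7:26474357-26474507, had a GC content of 70.2% and none of the motifs searched.
Tgfb1 internal site: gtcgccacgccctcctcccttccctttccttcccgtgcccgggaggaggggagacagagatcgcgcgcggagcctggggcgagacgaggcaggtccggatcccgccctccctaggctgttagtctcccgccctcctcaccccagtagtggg

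By fold enrichment both receptor promoters were above the median of all called promoters in every library. Tgfbr1 was at the 91.5th, 66.8th, 70.6th and 64.6th percentile in Cho 1, Cho 2, WT and the deletion. Tgfbr2 was at the 51.3th, 66.4th, 72.5th and 61.3th. Tgfbr1, the kinase that acts on Smad2 and Smad3, had 32.1 and 22.1 in the Cho replicates (27.1 ± 7.07, SD, n = 2), 15.5 in WT and 14.4 in the deletion, with the strongest summit of each library between 111 and 46 bp upstream of the TSS. Weaker summits lay at 343 bp in WT (6.82) and at -995 bp in the deletion (3.48). Tgfbr2, which binds the ligand, had 12.7 and 22.0 in the Cho replicates (17.3 ± 6.61, SD, n = 2), 15.8 in WT and 14.0 in the deletion. Tgfbr1 was well above Tgfbr2 in Cho 1 and the pair lay close together in the other libraries. The WT pileups were 51 fragments for Tgfbr1 (exact 95% Poisson interval 37.97 to 67.1) and 46 for Tgfbr2 (33.7 to 61.4), and these intervals overlapped.

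By fold enrichment, in WT and in the deletion, the promoters of the receptor-regulated Smads and of Smad4 were also above those of the ligands. Smad2 had 21.5 and 19.6 in the Cho replicates (20.6 ± 1.37, SD, n = 2), 13.5 in WT and 11.8 in the deletion. Smad3, which binds DNA directly, had 9.29 and 14.8 in the Cho replicates (12.05 ± 3.90, SD, n = 2), 16.2 in WT and 13.2 in the deletion. By fold enrichment Smad3 was the strongest of the 10 promoters in WT and number 9 of 10 in Cho 1. Smad4, the partner common to all branches, had 23.6 and 15.4 in the Cho replicates (19.5 ± 5.82, SD, n = 2), 11.2 in WT and 10.5 in the deletion. Its summit pileup was only 20 fragments in WT, on a local background of 0.881, the lowest background of the 10. By pileup Smad4 was below Tgfb2 (22) and Tgfb3 (32) and above Tgfb1 (16) in WT. In the deletion Smad4 and Tgfb2 had 31 fragments each, between Tgfb1 (18) and Tgfb3 (49).

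The inhibitory Smads had low fold enrichment in the lists with local backgrounds and higher values in Cho 1. Smad6, which acts mainly on the BMP branch, had 16.9 and 10.1 in the Cho replicates (13.5 ± 4.82, SD, n = 2), 6.84 in WT and 6.30 in the deletion. Smad7, which binds the activated type I receptor and brings in ubiquitin ligases, had 15.6 and 10.8 (13.2 ± 3.41, SD, n = 2), 7.97 in WT and 7.36 in the deletion. Each of these promoters was a group of summits. WT had summits at -5 and -646 bp of Smad6 and, just outside the promoter limit, one at -1.1 kb with 6.76, and the deletion had summits at 64 and -624 bp and one of 6.04 at -1.1 kb. In Cho 1 the whole group at Smad6 was 1 interval. Smad7 had summits at -873 and -136 bp in WT, with 7.97 and 7.63, and at -812 and -139 bp in the deletion, with 7.36 and 6.05. The upstream Smad7 summits lie within 1 kb of the start of the annotated gene RP24-263P17.1 as well, and these starts cannot be told apart here.

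Smad6 and Smad7 were the only members with the palindrome GTCTAGAC within 500 bp of the TSS, an arrangement of the Smad box that the Smad3 and Smad4 proteins are known to bind. It was found in 0.707% of all promoters of the same length. At Smad6 the palindrome covered the TSS itself, 5 bp from the WT summit. At Smad7 it lay at -350 bp from the TSS, between the summits. The sequence shown for the palindrome runs from 100 bases before to 10 bases after the Smad6 start, on the minus strand of NCBIM37 (chr9:63869857-63869966), with the palindrome in capitals.
Smad6 promoter: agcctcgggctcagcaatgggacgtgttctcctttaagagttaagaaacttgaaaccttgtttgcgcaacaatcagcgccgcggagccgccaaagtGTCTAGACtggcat

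The shorter Smad box CAGAC was present within 500 bp of the TSS at 9 of the 10 promoters, Smad6 being the exception, and in 88.8% of all promoters. Tgfb1 held 6 copies. TGANTCA, an AP-1-type motif with any base at its centre, was found in 1 member promoter (Tgfbr2) and in 18.9% of all. ACAAAG, a Sox-type motif, was found in 3 (Tgfb2, Tgfb3 and Tgfbr1) and 47.3% of all. ACAATG, another Sox-type motif, was found in none and 29.2% of all. Both strands were searched, and a match is a description of the letters only. The member promoters were rich in GC, with a median of 67.4% over the 500 bp on each side against 59.3% for all promoters called in WT. Smad2 (76.2%), Smad4 (74.2%) and Tgfbr1 (74.1%) were the richest, and Tgfb3 (55.0%) and Tgfb2 (57.1%) the poorest. Smad2 and Smad4 also had the highest ratio of observed to expected CpG, 1.02 each, and Tgfb2 the lowest, 0.527.

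Pileup and fold enrichment placed the 10 promoters differently among all promoters. In WT the median fold enrichment of the 10 was 9.56, against 12.7 for all called promoters, and their median percentile was 28.5. The median WT summit pileup of the 10 was 38 fragments, against 29 for all called promoters, and its median percentile was 68.9. The local background was high around them, with a median of 2.33 fragments in WT against 1.22, at the 86.6th percentile. The deletion showed the same arrangement, with a median percentile of 27.0 by fold enrichment, 77.7 by pileup and 88.2 by local background. In Cho 2 the figures were 38.2, 72.4 and 78.5. In Cho 1, with its single background, both measures gave 57.0.

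In WT the Smad6 promoter was at the 13.1th percentile of called promoters by fold enrichment and at the 75.3th by pileup, the widest gap of the 10, with 41 fragments on a local background of 5.14, which was at the 99.1th percentile. Tgfb3 and Smad7 had local backgrounds at the 95.4th and 96.6th percentile in WT, and Smad4 was the exception at the 31.1th. By pileup the 4 highest WT promoters were Tgfbr1, Smad3, Smad2 and Tgfbr2, with 51, 50, 47 and 46 fragments, and the exact Poisson interval of each held the other 3. Smad6, with 41 (29.4 to 55.6), did not differ from Tgfbr2 beyond counting error either. Tgfb1, with 16 (9.14 to 26.0), lay below all of these.

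**Figure D2:**
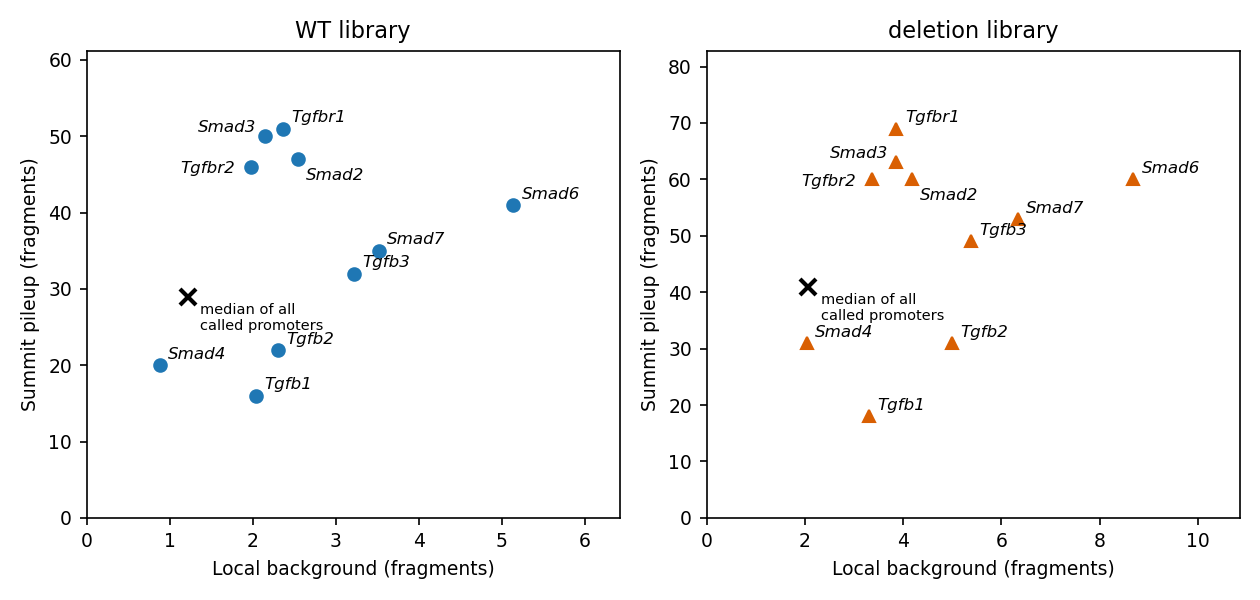
Summit pileup (vertical axis, fragments) against local background (horizontal axis, fragments) of the promoter peaks of the 10 genes in the WT and deletion libraries, with a cross at the median of all called promoters. Of the 10 genes, 9 in WT lie to the right of the cross, Smad6 farthest, with 41 fragments on 5.14 in WT and 60 on 8.68 in the deletion.

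WT and the deletion were set side by side as 2 libraries. With 1 library each, the missing Sox9 elements cannot be told apart from other differences between the libraries, such as depth. By fold enrichment, 9 of 10 promoters were lower in the deletion, and Tgfb3 was level, but none reached a 2-fold difference. The median log2 ratio of the 10 was -0.15, from -0.38 for Tgfb2 to 0.00 for Tgfb3. With the strongest peak at any annotated transcript start of each gene, 7 of 10 were lower, with a median of -0.12. Over the 12451 promoters called in both libraries the median was 0.01, 47.6% were lower in the deletion, 1.05% were at least 2-fold higher and 0.0723% at least 2-fold lower. The median of the 10 minus that of all promoters was -0.16, and all 10 were below the median of all promoters. By −log10 q, the strength of a call, the sign turned, with a median log2 ratio of 0.27 for the 10 and 0.42 for all promoters.

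Divided by library background, the ratio of summit pileups, deletion to WT, ran from 0.648 (95% exact interval 0.312 to 1.36) at Tgfb1 to 0.892 (0.493 to 1.65) at Smad4, and the intervals of all 10 held 1. The median log2 ratio over all promoters was also below 0 on this scale, at -0.26 against -0.33 for the 10, a difference of -0.07. Of the 10, 6 lay below the median of all promoters. Divided by tag depth, the interval left out 1 at 1 gene, Smad3 (0.670, 0.455 to 0.991), on a scale on which the median of all promoters was -0.37. In log2 the Smad3 interval ran from -1.14 to -0.01 and held that median. A difference between the libraries beyond that of all promoters was not detectable at any of the 10 genes at this depth.

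**Figure D3:**
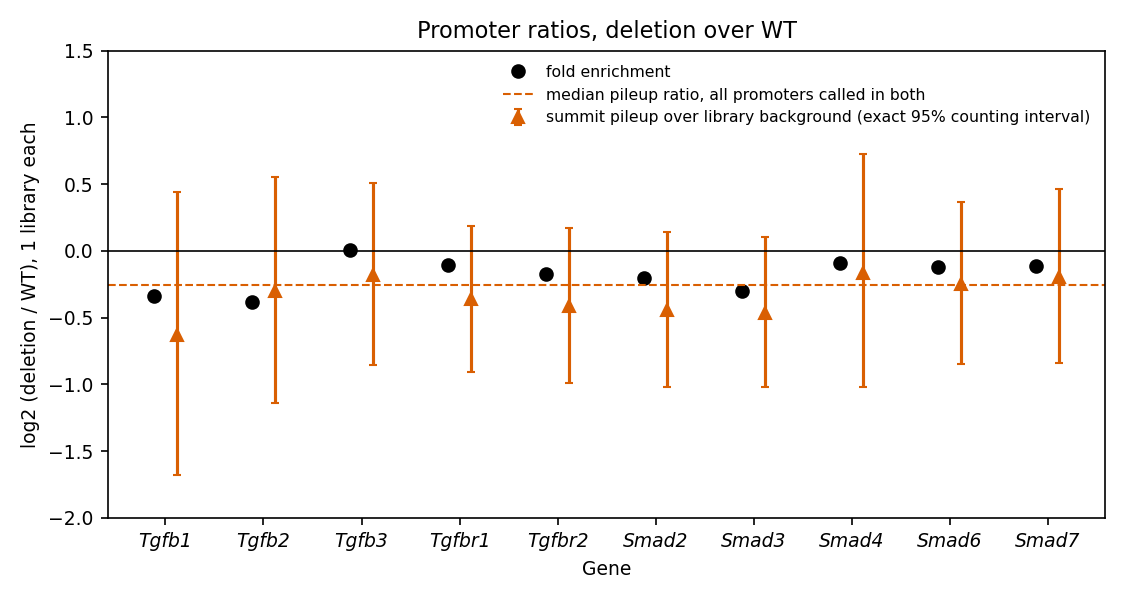
The log2 ratio of the deletion to WT (vertical axis) at each promoter (horizontal axis), by fold enrichment (black points) and by summit pileup over library background (orange triangles, with 95% exact intervals for counting error in 1 library each). The orange intervals of all 10 genes cross 0, and the dashed line is the median pileup ratio of all promoters called in both libraries (-0.26).

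Around the genes, the windows held 126 peaks in Cho 1, 266 in Cho 2, 163 in WT and 269 in the deletion. The deletion had 1.65 times as many as WT, against 1.86 for the whole lists, and 0.942 times as many once each list was reduced to its 76242 strongest peaks. Peaks were dense around most members, with a median of 11.1 peaks per 100 kb in WT against 5.85 over the windows of all genes. The densest in WT were Smad6 (15.4 per 100 kb), Smad7 (14.8), Tgfb3 (13.9) and Smad3 (13.7), each above the 90th percentile of all genes in WT. Smad2 was sparse, with 4 peaks in Cho 1, 11 in Cho 2, 4 in WT and 8 in the deletion, and with 2.44 peaks per 100 kb in WT it was at the 23.0th percentile.

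Smad3 had 22, 42, 29 and 42 peaks in Cho 1, Cho 2, WT and the deletion, and 18 of the 24 distal WT peaks of its window were in its own introns. Smad6 had 11, 42, 26 and 42, and its number differed more between the Cho replicates than that of any other member (3.82 times). Smad7 had 18, 28, 19 and 28. All 19 of its WT peaks overlapped a deletion peak, as did all WT peaks in the windows of Tgfb3, Tgfbr2, Smad3 and Smad6. Tgfbr2 had 10, 23, 8 and 20, the largest ratio of the deletion to WT (2.50), and Smad4 had 13, 20, 11 and 25 (2.27). Tgfb1 had 14, 18, 14 and 18, in a window where 6 other protein-coding genes start, and none of its distal peaks lay in an intron of Tgfb1. Tgfb2 had 16, 36, 19 and 33, Tgfb3 had 9, 24, 17 and 29, and Tgfbr1 had 9, 22, 16 and 24.

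**Figure D4:**
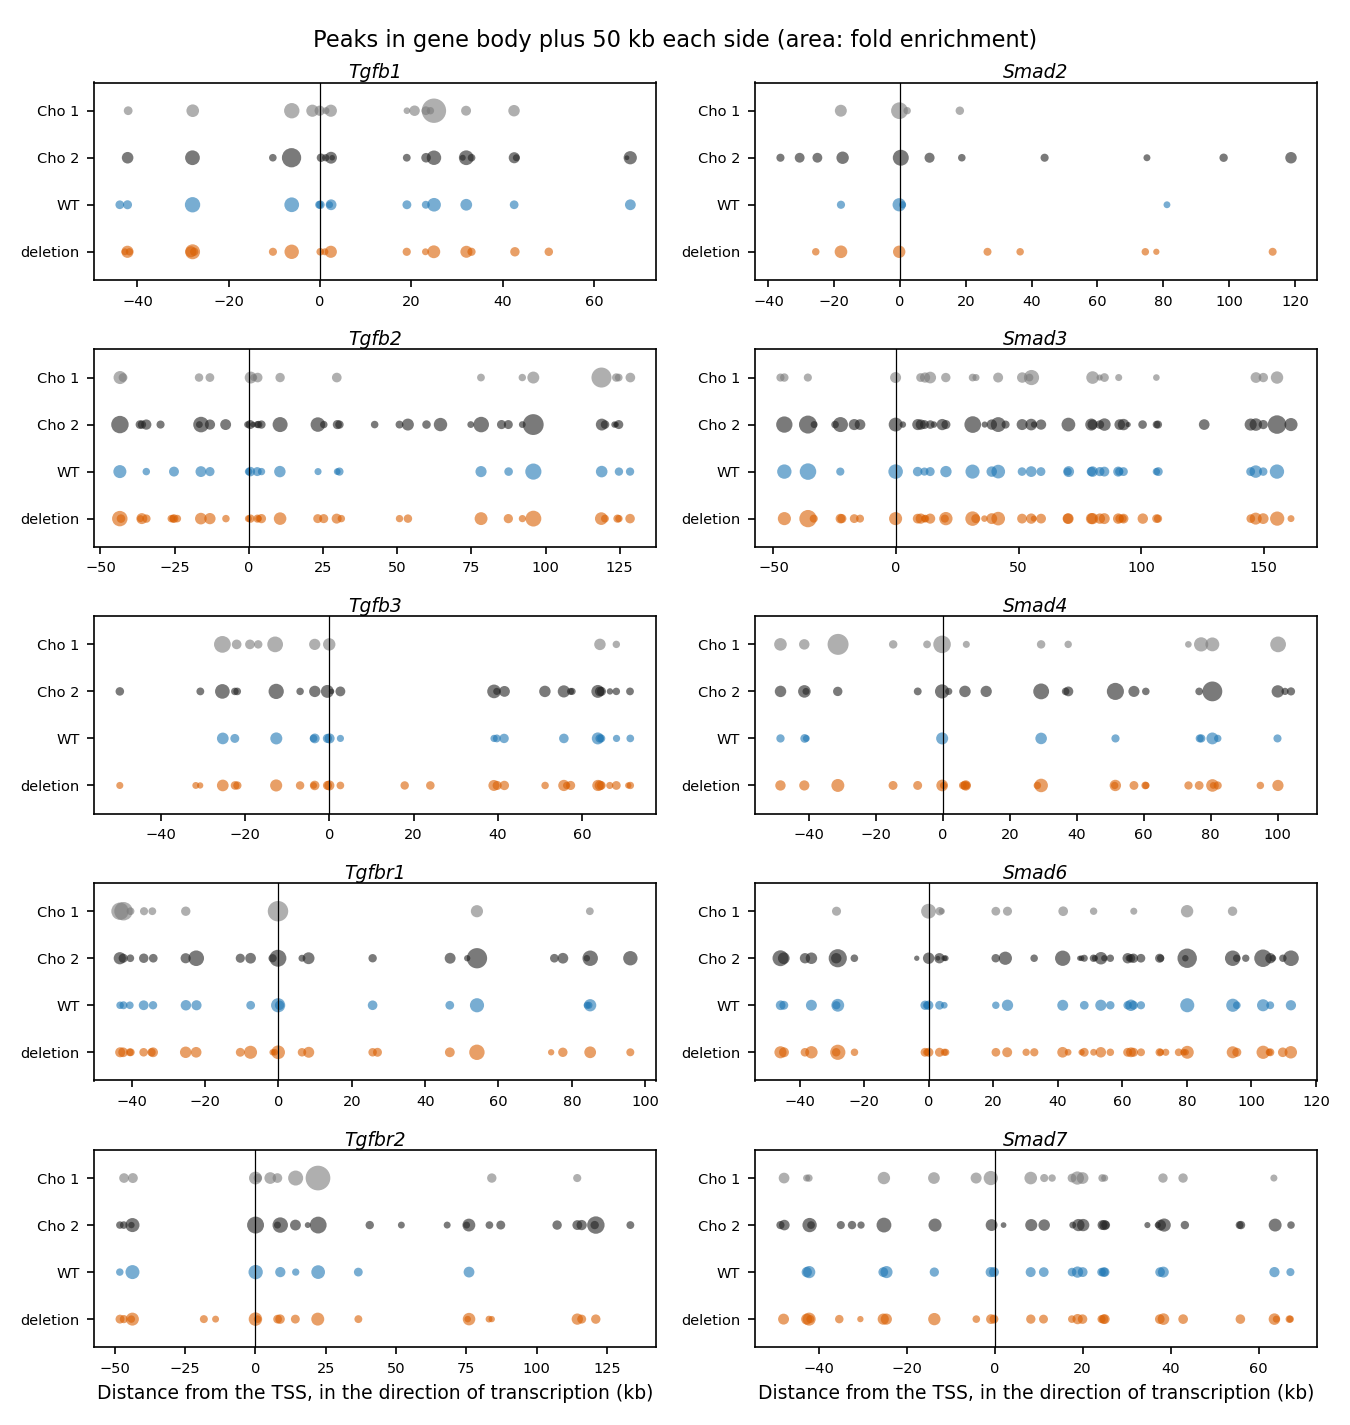
Peaks of the 4 libraries (rows) by distance of the summit from the TSS in kb (horizontal axis, positive in the direction of transcription) in the window of each gene, with the area of a point in proportion to fold enrichment. Distances are from a start matched between the builds, in Cho 2 as in the other rows. No start was matched for Smad2, Smad4 and Smad7, where Cho 2 distances are from the GRCm38 start, which need not be the same base. Smad2 has the fewest peaks in every library (4 in WT against 29 for Smad3).

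Nearly all WT peaks were found again in the deletion. Of 163 WT peaks, 157 overlapped a deletion peak (96.3%, exact 95% interval 92.2% to 98.6%), against 95.9% over the whole WT list. In the other direction, 155 of 269 peaks of the deletion had a WT counterpart (57.6%, interval 51.5% to 63.6%), against 49.4% over the whole deletion list. Of the 114 deletion peaks without a WT peak, 29 overlapped a Cho 1 peak (25.4%, against 27.3% over the whole lists), and of the 155 with a WT peak 106 did (68.4%, against 59.3%). For 7 members Cho 2 could be set beside them by distance from a start placed in both builds. There, 58 of 84 deletion peaks without a WT peak overlapped a Cho 1 peak or had a Cho 2 summit within 150 bp (69.0%). By overlap with the deletion and Cho 1 and by distance in Cho 2, 70 of 129 WT peaks were in all 4 libraries (54.3%). No share over all peaks stands beside these counts, since the lists of both builds could not be matched outside the placed starts. Smad2, Smad4 and Smad7 were left out of that count because their starts could not be placed.

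Of 121 distal WT peaks that overlapped a deletion peak, 4 were at least 2-fold higher in the deletion by fold enrichment and 0 at least 2-fold lower, when set beside the strongest overlapping peak. Over all such distal peaks 8.34% were at least 2-fold higher and 0.0867% at least 2-fold lower. One of the 4, at 84.7 kb of Tgfbr1, was set beside a deletion summit at 84.996 kb, where WT had its own peak of 11.6 against 10.6 in the deletion. With each WT peak paired with the nearest deletion summit within 150 bp, a setting chosen after seeing the data, 3 of 118 were at least 2-fold higher and 0 at least 2-fold lower, against 7.28% and 0.0935% over all distal peaks paired in this way. The median log2 ratio of these pairs was 0.17 near the members and 0.33 over the whole list. The 3, named after their values were seen, were at -7.53 kb of Tgfbr1, at -17.97 kb of Smad2 and at 39.1 kb of Tgfb3. The WT pileups there were 7, 6 and 5 fragments, and the interval of each pileup ratio over library background held 1. At the Smad2 site the pileups were 6 in WT and 19 in the deletion, a ratio of 1.82 (0.700 to 5.58).

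By fold enrichment the strongest peak of most windows was not the gene's own promoter. The promoter was first in 4 of 10 windows in Cho 1 (Tgfbr1, Smad2, Smad6 and Smad7), in 1 in Cho 2 (Smad2), in 4 in WT (Tgfbr1, Tgfbr2, Smad2 and Smad4) and in 1 in the deletion (Tgfbr2). By summit pileup it was first in 4 windows in Cho 1, in the same 4 as by fold enrichment, in 2 in Cho 2 (Tgfb3 and Smad2), and in 4 in WT and 4 in the deletion (Tgfb3, Tgfbr1, Smad2 and Smad3 in each). The strongest distal WT peak of each window, more than 1 kb from any annotated TSS, is described next, with 151 bases on the WT summit where it lay outside exons. Distances are from the TSS of the member, and a position near a gene does not show which gene it acts on. Base 76 of each sequence is the WT summit. Capitals mark matches, on either strand, to the Smad boxes, the AP-1-type motif and the Sox-type motifs spelled out for the promoters. All these sequences are from the plus strand of NCBIM37.

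At Tgfb2 the strongest distal peak was intergenic, 95.9 kb past the TSS and beyond the end of the gene (chr1:188433911-188434061). It had 11.0 in Cho 1, 33.3 in Cho 2, 20.05 in WT and 19.3 in the deletion, and was above the Tgfb2 promoter in WT and in the deletion and equal to it in Cho 1. One TGANTCA match lay at bases 97 to 103.
Tgfb2 distal: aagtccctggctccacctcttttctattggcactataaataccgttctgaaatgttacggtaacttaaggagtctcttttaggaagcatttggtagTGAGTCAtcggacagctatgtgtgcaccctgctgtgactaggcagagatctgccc
At Smad3 the peak was intergenic, at -35.88 kb from the TSS (chr9:63641610-63641760), and had the highest fold enrichment of the 10 in WT and in the deletion. It had 5.07 in Cho 1, 24.9 in Cho 2, 21.0 in WT and 23.0 in the deletion, so that the Cho replicates lay apart (15.0 ± 14.0, SD, n = 2). A TGANTCA match lay at bases 80 to 86, 4 bases from the summit, and a CAGAC match at 103 to 107.
Smad3 distal: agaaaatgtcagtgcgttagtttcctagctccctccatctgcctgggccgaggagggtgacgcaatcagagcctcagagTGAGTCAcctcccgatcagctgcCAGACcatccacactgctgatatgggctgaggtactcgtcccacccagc
At Tgfbr1 the peak was in an intron of the gene, 54.1 kb past the TSS (chr4:47420167-47420317). It had 11.4 in Cho 1, 31.6 in Cho 2, 15.4 in WT and 18.2 in the deletion. By fold enrichment it was above the Tgfbr1 promoter in Cho 2 and in the deletion. By summit pileup it was above the promoter in Cho 2 (280 against 263 fragments) but below it in the deletion (39 against 69) and in WT (24 against 51). A TGANTCA match at bases 67 to 73 overlapped a CAGAC match at 72 to 76, with a further CAGAC at 26 to 30 and ACAAAG at 114 to 119.
Tgfbr1 distal: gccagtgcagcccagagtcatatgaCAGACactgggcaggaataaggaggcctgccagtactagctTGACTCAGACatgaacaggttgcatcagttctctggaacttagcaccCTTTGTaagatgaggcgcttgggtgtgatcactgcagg

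Over all distal sites TGANTCA was about as frequent near the members as elsewhere, being found in 27 of 127 distal WT peaks of the windows (21.3%) and in 21.2% of all 67820 distal WT peaks over the same 151 bp. CAGAC was found in 31.5% and 36.5%, ACAAAG in 11.8% and 9.52%, ACAATG in 9.45% and 5.59%, and GTCTAGAC in 0 of 127 and 0.229%.

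At Tgfbr2 the strongest distal WT peak was intergenic, at -43.8 kb from the TSS (chr9:116128114-116128264), with 7.60 in Cho 1, 15.2 in Cho 2, 15.1 in WT and 13.0 in the deletion. One ACAATG match lay at bases 84 to 89. A site of nearly the same WT fold enrichment, named after its values were seen, lay in an intron of Tgfbr2, 22.2 kb past the TSS (chr9:116062077-116062227). It had 46.9 in Cho 1, 21.8 in Cho 2, 14.4 in WT and 12.9 in the deletion, and its WT pileup of 56 fragments was within the counting interval of the 46 at the Tgfbr2 promoter. One TGANTCA match lay at bases 85 to 91. Its pileup ratio of deletion to WT was 0.699 (0.484 to 1.01) over library background and 0.645 (0.446 to 0.936) by tag depth. The interval of the latter left out 1, on a scale on which the median log2 ratio of all promoters was also below 0 (-0.37). No median over distal peaks is given on that scale, so the interval does not set this site apart from other peaks.
Tgfbr2 distal: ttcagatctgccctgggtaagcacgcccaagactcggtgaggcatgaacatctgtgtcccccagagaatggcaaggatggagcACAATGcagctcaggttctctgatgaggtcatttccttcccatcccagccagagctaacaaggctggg
Tgfbr2 intronic: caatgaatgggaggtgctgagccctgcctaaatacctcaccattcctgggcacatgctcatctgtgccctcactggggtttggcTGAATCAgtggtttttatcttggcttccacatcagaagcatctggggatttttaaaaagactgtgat
At Tgfb3 the peak lay in an intron of the neighbouring transcript 1700019E19Rik, at -12.6 kb from the Tgfb3 TSS (chr12:87432556-87432706), with 19.0 in Cho 1, 17.9 in Cho 2, 11.1 in WT and 11.3 in the deletion. By fold enrichment it was above the Tgfb3 promoter in all 4 libraries, though in Cho 1 its summit lay 275 bp away. By summit pileup the promoter was the higher in WT (32 against 30 fragments), in the deletion (49 against 43) and in Cho 2 (216 against 140). One CAGAC match lay at bases 124 to 128.
Tgfb3 distal: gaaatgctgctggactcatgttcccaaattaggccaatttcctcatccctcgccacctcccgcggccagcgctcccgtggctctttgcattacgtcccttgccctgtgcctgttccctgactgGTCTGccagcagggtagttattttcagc
At Smad6 the peak was intergenic, 80.1 kb past the TSS and beyond the end of the gene (chr9:63789648-63789798), with 11.8 in Cho 1, 28.9 in Cho 2, 15.2 in WT and 12.8 in the deletion. It was above the Smad6 promoter in the 3 libraries with local backgrounds and below it in Cho 1. Its GC content was 68.2%, and none of the motifs was found.
Smad6 distal: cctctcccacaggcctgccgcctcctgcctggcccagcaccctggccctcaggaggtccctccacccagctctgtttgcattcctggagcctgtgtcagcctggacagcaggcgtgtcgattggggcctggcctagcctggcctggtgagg

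**Figure D5:**
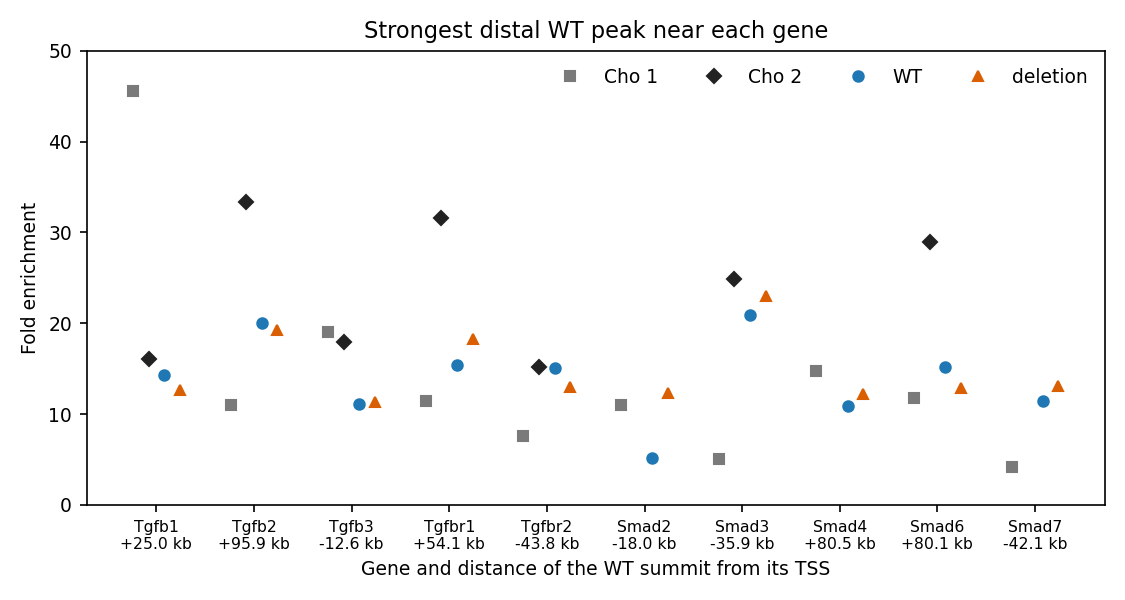
Fold enrichment (vertical axis, no unit) of the strongest distal WT peak in the window of each gene (horizontal axis, with the distance of the summit from the TSS) in the 4 libraries, 1 point per library. WT and deletion points lie close together except at Smad2 (5.14 and 12.3), and Cho 2 is not drawn for Smad2, Smad4 and Smad7, whose starts could not be placed in both builds.

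The remaining sites were in exons or on chromosome 18 and are given by value. At Tgfb1 the strongest distal WT peak was in an untranslated region of the neighbouring gene Ccdc97, 24.98 kb past the Tgfb1 TSS (chr7:26496794-26497261), with 45.6 in Cho 1, 16.1 in Cho 2, 14.3 in WT and 12.7 in the deletion. At Smad7 it was intergenic, at -42.1 kb, with 4.22 in Cho 1, 11.5 in WT and 13.1 in the deletion. At Smad4 it was intergenic, 80.5 kb past the TSS and 1660 bp from the start of another annotated transcript, with 14.8 in Cho 1, 10.9 in WT and 12.2 in the deletion. A further site of Smad4, named after its values were seen, lay in an intron 29.4 kb past the TSS and 739 bp from an internal start of Smad4, with 5.49 in Cho 1, 10.3 in WT and 14.1 in the deletion. At Smad2 the strongest distal WT peak was the weak site at -17.97 kb described above, with 11.0 in Cho 1, 5.14 in WT and 12.3 in the deletion.

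Distal peaks called in WT but not in the deletion were weak. The 3 strongest were in an intron of Bckdha in the Tgfb1 window (5.85, on 7 fragments), in the Smad4 window at 77.2 kb (5.25, on 12) and in an intron of Tgfb2 at 30.5 kb (5.21, on 9). The site in the Smad4 window had 15.6 in Cho 1, and the site in Tgfb2 had 5.41 in Cho 2. Distal peaks called in the deletion but not in WT reached higher values. The strongest was in an untranslated region of Elac1 in the Smad4 window (12.9, on 20 fragments), which overlapped a Cho 1 peak of 33.8. The next were in an intron of Gadl1 in the Tgfbr2 window (9.84, on 15 fragments, with 5.07 and 7.44 in the Cho replicates) and in an intron of Rrp15 in the Tgfb2 window (9.22, on 14 fragments, with none in Cho 1 and 5.41 in Cho 2). The deletion library had more tags per Mb than WT (8697 against 4622), and the part of depth in these calls was not tested.

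Most other genes of the pathway were open too. Of 30 listed genes, 25 had a promoter peak in Cho 1, 26 in Cho 2, 27 in WT and 28 in the deletion, and 21 had one in all 4 libraries. The shares of the list by library were 83.3%, 86.7%, 90.0% and 93.3%, against 58.6%, 64.9%, 62.2% and 67.8% of all protein-coding promoters. Of all these promoters 52.8% had a peak in all 4 libraries. Furin, the protease that cleaves the TGF-β precursor, had none in any library, and Lrrc32, which anchors latent TGF-β at the cell surface, had one in Cho 2 only (12.04). The highest in WT were Bambi, a decoy receptor (18.01 in WT, 16.6 in the deletion), Acvr2b, an activin receptor (14.6 and 12.7), and Zfyve9, which presents Smads to the receptor (14.4 and 11.5). Bambi was above each of the 10 members in WT.

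Of 27 of these genes with a peak in both libraries, 17 were lower in the deletion by fold enrichment, with a median log2 ratio of -0.20, and none was past 2-fold in either direction. The target genes Ccn2 (-0.43), Tgfbi (-0.51) and Timp1 (-0.24) were lower, as were 3 of 4 corepressors, with a median of -0.32. Of 8 latency and activation genes 3 were lower, with a median of 0.12, and the integrin gene Itgb6 had the highest ratio of the list (0.82). Of 6 genes for receptor partners and degradation 4 were lower (median -0.22), and of 5 other receptors and coreceptors 3 were lower (median -0.12). Over all promoters called in both libraries the median was 0.01 and 47.6% were lower in the deletion. Of those promoters 1.05% were at least 2-fold higher and 0.0723% at least 2-fold lower. The values of the listed genes describe 2 libraries and were not tested.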

How the data were processed

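ATAC-Seq of mouse rib chondrocytes was deposited as 4 narrowPeak lists. Per the labels' processing notes the submitters used fastp, Bowtie2 (2.4.4), SAMtools (1.9), Picard (2.20.7) and MACS2 (2.2.4), with roles and order not given there. The deposited lists hold the fold enrichment ratio at the summit, the −log10 p-value and −log10 q-value, and an integer score that was not used. Peaks were called per library, so replicates were not pooled.

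Cho 2 was read on GRCm38 positions and the other lists on NCBIM37 (mm9). The labels name mm9 for all 4 libraries, but 64.9% of promoters held a Cho 2 peak with GRCm38 positions against 17.1% with NCBIM37 positions. In Cho 2, 99 peaks lay outside the numbered chromosomes, X, Y and M, on sequences that were not compared between the builds. No coordinates were converted. Peaks of Cho 2 were set beside the others only by distance (within 150 bp) from starts placed in both builds, by RefSeq promoter sequence or by a gene record of like length (within 10 bp), for 7 of 10 genes. One row was kept per interval, with the highest fold enrichment. Cho 1 had 87815 entries in 76242 intervals.

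Summit pileup was solved from the fold enrichment and the −log10 p-value under MACS2's Poisson model, for every entry (relative tolerance 0.001). Library background was the most frequent solved background, and depth was that background over the smallest peak width. The solver was tested on simulated data. Ratios of pileups carry exact conditional 95% intervals, single pileups exact Poisson and shares exact binomial intervals, all for counting error in 1 library only. Overlap meant at least 1 bp between lists of 1 build. Distal meant over 1 kb from any annotated start. Python 3.11.15, numpy 2.4.6, pandas 2.3.3, scipy 1.17.1, bedtools 2.31.1 and matplotlib 3.10.9 were used, with genome sequence and gene models of NCBIM37 and RefSeq gene records of GRCm38.

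The genes and lists were chosen with earlier results of these data known. The genes named beyond the 10 were the list members with the highest WT value or without peaks, and the sites named were the strongest distal WT peak of each window and the 3 strongest distal peaks of 1 genotype alone. Other named sites and genes were chosen after their values were seen. Alternatives covered the promoter width, the transcript starts, equal numbers of peaks per list, a stricter q-value, the window size, the overlap, the scale of the ratio and each Cho replicate left out. The values of 1 listed gene are not reported here.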

Additional observations from a re-analysis of the deposited data

How the results depend on the processing

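The number of the 10 genes with a promoter peak stayed between 7 and 10 in every library under each alternative. The median promoter fold enrichment of the 10 in Cho (14.5 ± 0.467, SD, n = 2) was 0.941 ± 0.248 relative to the median over promoters open in every library and 67.1 ± 61.3 as pileup over library background, on scales of their own. It ran from 14.1 to 14.8 with 1 Cho replicate left out and was 14.0 with starts from RefSeq promoter sequence, an alternative chosen after seeing the data, as was leaving out Tgfb1. The median log2 ratio of deletion to WT (-0.15) was -0.33 by pileup over library background, -0.45 by tag depth and -0.96 with Cho 1 in place of WT, and turned to 0.27 by −log10 q, on which the median of all promoters was 0.42. The ratio of deletion to WT window peaks (1.65) fell to 0.942 with the 76242 strongest peaks of each list. With those lists the share of WT peaks found in the deletion was 79.6% (82.8% of the whole list) and that of deletion peaks found in WT was 83.7% (79.7%). With an overlap of 50% the latter was 49.1% (38.9%). The cause of these changes was not tested. Of 72 alternatives 61 stayed within these limits: counts and ratios of counts within 1.5 times, shares within their intervals, medians within the SD between the Cho replicates, and single promoter ratios with the fold enrichment value inside the counting interval. With 2 Cho replicates, leaving 1 out cannot move their mean past that SD, and the counting intervals were wide. The number within the limits is therefore no measure of how firm the results are. Inside the counting interval Tgfb3 still went from 0.00 to -0.18 by library background and -0.30 by tag depth, and Tgfb1 from -0.34 to -0.63 and -0.74. With 1 library per genotype, counting error alone left each promoter ratio uncertain. No paired analysis was possible because each genotype had a single library and no test was made.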
